A study of Homo sapiens with 2 samples.

Results

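Class B ephrins and EPHB receptors are 8 genes of the EPH family: the ligand genes EFNB1, EFNB2 and EFNB3 and the receptor genes EPHB1, EPHB2, EPHB3, EPHB4 and EPHB6. They were taken by gene number from the gene tables of 2 RNA-seq libraries, and all 8 of the 18518 genes found in either table were listed in both. The cells were H1, a line of human embryonic stem cells, with the genotype Wild Type in one library and MEIS1-/- in the other. Both were collected on day 3 of stepwise differentiation towards blood, which began with 2 days of activin A (40 ng/ml) and BMP4 (50 ng/ml) and went on with VEGF (40 ng/ml) and bFGF (50 ng/ml). MEIS1 encodes a homeodomain transcription factor that binds DNA together with proteins of the HOX and PBX families. The sources used here did not state how many clones or cultures each library came from or which part of MEIS1 was deleted.

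Class B ephrins are transmembrane proteins on one cell that bind EPHB receptor tyrosine kinases on a neighbouring cell. Binding signals in both directions, forward through the receptor's kinase and reverse through the ephrin's own tail, and it guides repulsion, adhesion and boundary formation between cells. In blood vessels, ephrin-B2 marks arterial endothelium and its receptor EPHB4 marks venous endothelium, and both are needed to remodel the first vessel network into arteries and veins. EFNB2 and EPHB4 are also active outside the endothelium, in mesoderm and other tissues of the embryo.

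The wild-type library held 5202847 counts over 17562 genes and the library labelled MEIS1-/- 5296397 counts over 17696 genes. MEIS1 had 89 and 68 counts, a ratio of 0.759 with an exact 95% counting interval of 0.543 to 1.05, so its level did not check the genotype label. With 1 library per genotype there was no test between genotypes and no replicate check. Every ratio below is that of the library labelled MEIS1-/- over the wild-type library, after TMM scaling, and its interval covers counting error only. A gene is called higher or lower when that interval excluded 1. Of the pluripotency genes, POU5F1 (OCT4) was still read at 148 and 83.4 FPKM, while SOX2 was at 0.31 and 0.67 FPKM. Endothelial genes were also read in both libraries, with KDR at 141 and 160 FPKM. FPKM, which divides fragments by transcript length and library depth, is the scale used here for levels between genes.

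EFNB2 and EPHB4 stood far above the other members in both libraries. EFNB2 was read at 55.7 FPKM in wild type and at 70.8 FPKM in the library labelled MEIS1-/-, which placed it in the top 6.61% and top 5.0% of listed genes. EPHB4 followed at 35.7 and 33.3 FPKM, in the top 11.2% and top 12.0%. The counting intervals of EFNB2, 52.7 to 58.8 FPKM in wild type and 67.4 to 74.3 FPKM in the other library, lay apart from those of EPHB4, 33.3 to 38.3 FPKM and 31.0 to 35.8 FPKM. The 6 remaining members lay at or below 9.57 FPKM.

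**Figure D1:**
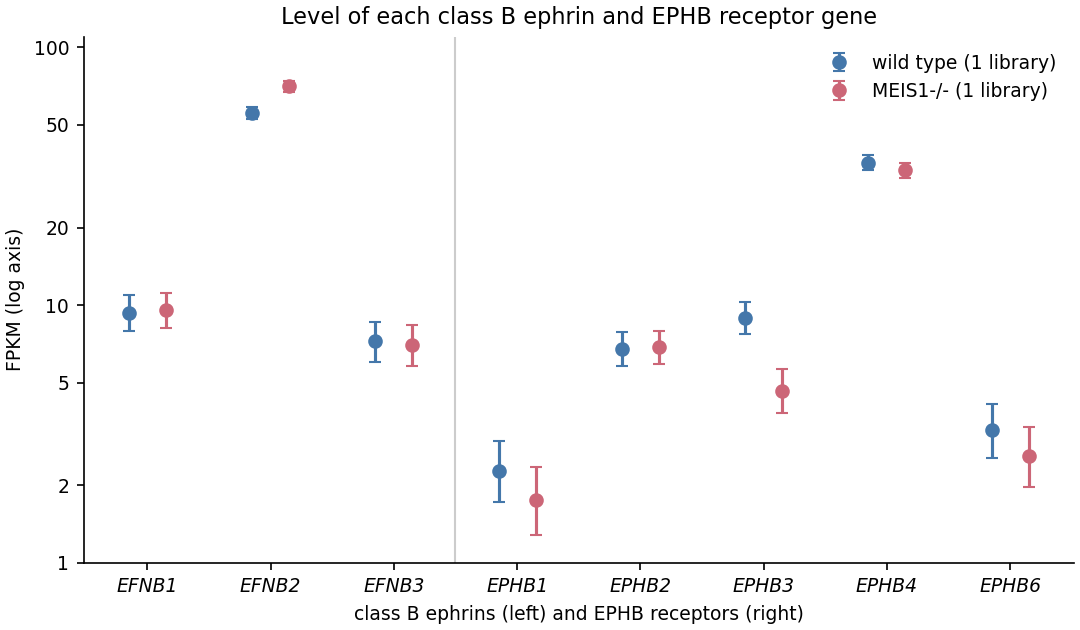
Level of each of the 8 genes in FPKM (log axis) in the wild-type library (blue) and the library labelled MEIS1-/- (red), 1 library each; bars are exact 95% Poisson counting intervals. EFNB2 (55.7 and 70.8 FPKM) and EPHB4 (35.7 and 33.3 FPKM) lie above the rest, and EPHB3 (8.95 and 4.66 FPKM) shows a gap in the other direction from EFNB2.

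Below these, the order of levels in wild type ran EFNB1 (9.35 FPKM), EPHB3 (8.95), EFNB3 (7.23), EPHB2 (6.77), EPHB6 (3.27) and EPHB1 (2.28). Intervals of neighbours overlapped from EFNB1 down to EPHB2 and again between EPHB6 and EPHB1, so within these 2 groups the order of neighbours was not resolved at this depth. In the library labelled MEIS1-/- the order was EFNB1 (9.57 FPKM), EFNB3 (6.99), EPHB2 (6.88), EPHB3 (4.66), EPHB6 (2.60) and EPHB1 (1.76). EPHB3 stood below EFNB3 and EPHB2 there, and its interval, 3.81 to 5.64 FPKM, no longer reached that of EPHB2, 5.89 to 7.95 FPKM.

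EFNB2 was the single member called higher in the library labelled MEIS1-/-, and EPHB3 the single member called lower. The other 6 had intervals that included 1. Across the 14381 genes with at least 10 counts in 1 library, which all 8 members reached, 15.4% were called higher and 14.7% lower, so 1 of 8 members in each direction is near the background. The median log2 ratio of the 8 was -0.06, against 0.0032 for all these genes. No member (0 of 8) differed by 2-fold or more with an interval that excluded 1, a size reached by 2.9% of genes upwards and 2.95% downwards.

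EFNB2 (gene 1948), the arterial ligand, gave 1283 counts in the wild-type library against 1660 in the library labelled MEIS1-/-. This was 1.28-fold higher (1.19 to 1.38), a log2 ratio of 0.36 (0.25 to 0.46). The narrow interval reflects its depth: among the 1143 genes with at least 1000 counts in 1 library, 35.8% were called higher and 27.3% lower, so a call at that depth is common. In bulk RNA, more cells that express a gene and more of its RNA per cell cannot be told apart.

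EPHB3 (gene 2049), a receptor known from axon guidance, palate formation and the sorting of intestinal epithelium, gave 198 counts in the wild-type library against 105 in the library labelled MEIS1-/-. It was 1.90-fold lower (1.496 to 2.44), a log2 ratio of -0.92 (-1.29 to -0.58). It was the only one of the 8 to pass 1.5-fold with an interval that excluded 1, a size reached by 6.21% of all genes downwards and 5.75% upwards.

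EPHB4 (gene 2050), the venous receptor, had 816 and 775 counts, a ratio of 0.940 (0.851 to 1.04). With this many counts the interval excluded a drop below 0.851 or a rise above 1.04 between these libraries. EFNB1 (gene 1947), a ligand with a role in craniofacial and skeletal patterning, had 163 and 170 counts and a ratio of 1.03 (0.828 to 1.29). EFNB3 (gene 1949), a ligand of the nervous system's midline, had 122 and 120 counts and a ratio of 0.974 (0.750 to 1.26). EPHB2 (gene 2048), a receptor of axon guidance and synapses, had 172 and 178 counts and a ratio of 1.02 (0.826 to 1.27). For each of these 4 genes the interval included 1, and the bounds above are the differences that counting error leaves possible.

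EPHB1 (gene 2047) and EPHB6 (gene 2051) were the members with the fewest counts. EPHB1, another receptor of axon guidance, had 56 and 44 counts and a ratio of 0.781 (0.512 to 1.18). EPHB6, a receptor that lacks kinase activity, had 69 and 56 counts and a ratio of 0.806 (0.554 to 1.16). Both ratios were below 1, and at this depth neither could be told from no difference; the intervals also reach 1.95-fold and 1.80-fold lower.

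**Figure D2:**
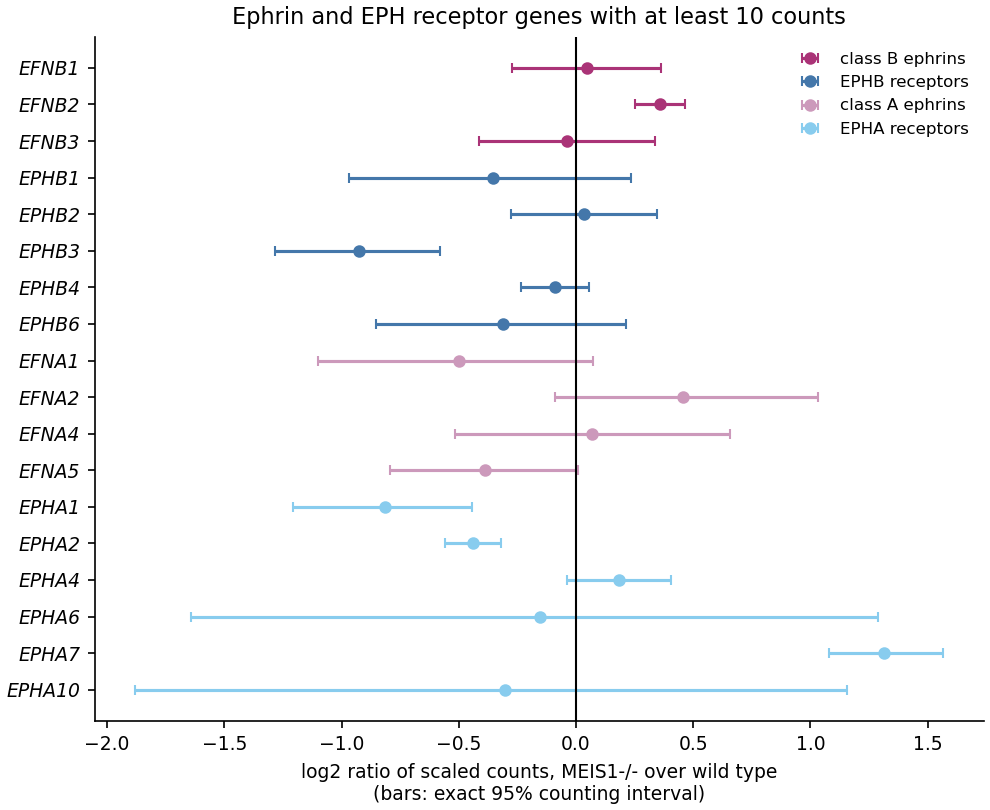
Log2 ratio of scaled counts, library labelled MEIS1-/- over wild type, for each ephrin and EPH receptor gene with at least 10 counts in 1 library; bars are exact 95% counting intervals and colours mark the 4 groups. Among class B genes only the bars of EFNB2 (0.25 to 0.46) and EPHB3 (-1.29 to -0.58) miss 0, and among class A genes those of EPHA7, EPHA1 and EPHA2 do.

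The promoters of the 2 members whose intervals excluded 1 are shown because MEIS1 binds DNA and these 2 differed between the libraries by more than counting error. Both are RefSeq windows from GRCh38.p14, 250 bases before to 50 bases after the gene start, in the direction of the gene. Capitals mark TGACAG, the core of the sequence that MEIS proteins bind, on either strand (CTGTCA is the other strand). The EFNB2 window lies at chr13:106535613-106535912 on the minus strand and the EPHB3 window at chr3:184561535-184561834 on the plus strand.
EFNB2: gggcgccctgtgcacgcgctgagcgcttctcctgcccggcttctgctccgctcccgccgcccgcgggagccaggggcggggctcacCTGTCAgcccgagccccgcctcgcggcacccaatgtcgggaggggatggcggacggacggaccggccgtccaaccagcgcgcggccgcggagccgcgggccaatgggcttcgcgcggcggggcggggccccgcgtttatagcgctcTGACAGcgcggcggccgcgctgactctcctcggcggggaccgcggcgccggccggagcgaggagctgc
EPHB3: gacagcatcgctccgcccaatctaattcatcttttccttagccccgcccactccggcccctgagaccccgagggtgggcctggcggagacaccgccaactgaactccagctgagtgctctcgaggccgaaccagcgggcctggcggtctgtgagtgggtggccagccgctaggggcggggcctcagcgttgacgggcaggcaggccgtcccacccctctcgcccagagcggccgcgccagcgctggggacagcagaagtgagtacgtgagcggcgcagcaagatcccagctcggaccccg

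EFNB2 held the core 2 times, at bases -18 to -13 before the start on the gene's own strand and at bases -164 to -159 on the other. EPHB3 held none. Of the 7 members with a RefSeq window, EFNB2 alone held the core, and over all 27305 genes with a window 18.6% did. The longer composite of a PBX half-site and this core, and the GATA motif AGATAA, searched on both strands, were in 0 of the 7, against 0.19% and 12.4% of genes. The composite contains the core. EFNB3 was the member without a window. The files hold no measurement of binding, so these letters are a description of the windows alone.

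Ratios between 2 genes of the same library do not depend on how the libraries were scaled. There were 2.14 EFNB2 counts for each EPHB4 count in the library labelled MEIS1-/- and 1.57 in wild type, a change of 1.36-fold (exact 95% interval 1.20 to 1.54). On the FPKM scale the ligand stood at 2.13 and 1.56 times the receptor. The summed counts of the 3 ephrins were 1568 in wild type and 1950 in the other library, and those of the 5 receptors 1311 and 1158. The ligand to receptor ratio was thus 1.20 and 1.68, a change of 1.41-fold (1.27 to 1.56). Without EFNB2 and EPHB4, the most abundant member on each side, the change was 1.32-fold (1.06 to 1.63) on 285 and 290 ephrin counts and 495 and 383 receptor counts. EPHB3, with 198 and 105 of these receptor counts, held most of the receptor difference, so this change was not one shared by all remaining members.

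**Figure D3:**
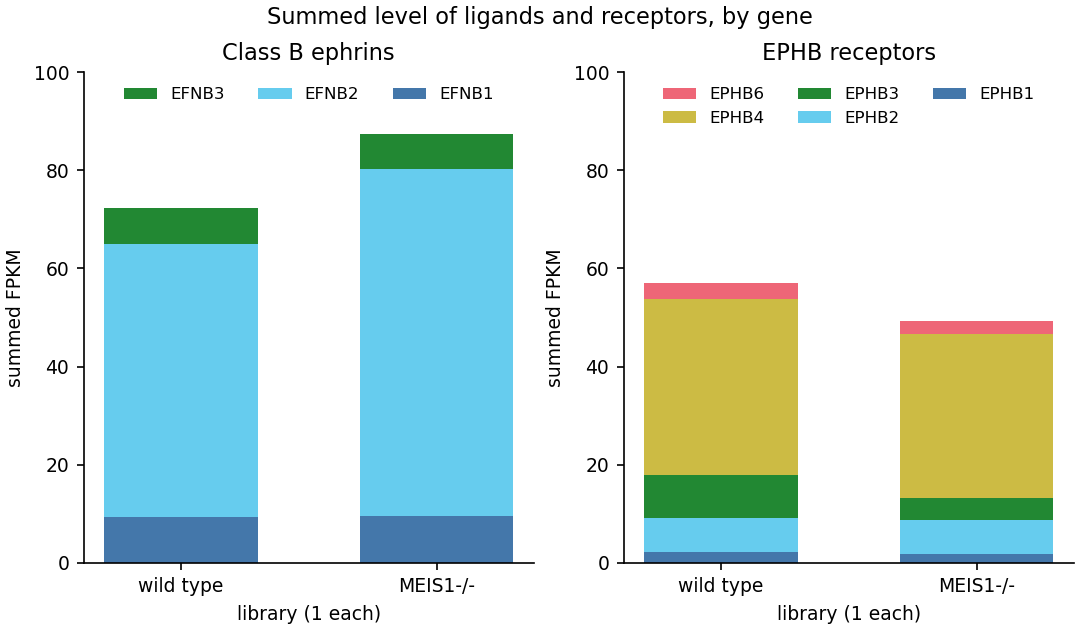
Summed FPKM of the 3 class B ephrins (left) and the 5 EPHB receptors (right) in each library, 1 library each, split by gene. The ephrin sum is 72.3 FPKM in wild type and it is 87.4 FPKM in the library labelled MEIS1-/-, and the receptor sum is 57.0 and 49.2 FPKM; EFNB2 and EPHB4 fill most of each bar.

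EFNB2 made up 77.1% of the class B ephrin FPKM of wild type and 81.0% of that in the library labelled MEIS1-/-. EPHB4 made up 62.7% and 67.7% of the EPHB receptor FPKM. EPHB3 took the second place among receptors in wild type with 15.7% and the third in the other library with 9.47%, behind EPHB2 with 14.0%. The ratio of EPHB3 counts to those of the other 4 EPHB receptors was 0.178 in wild type and 0.0997 in the other library. This ratio changed 0.560-fold (0.432 to 0.725). Relative to EFNB1 and EFNB3 together, EFNB2 was 1.27-fold higher (1.06 to 1.53).

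All 28 pairs of members were compared in this way. Of these, 9 changed their ratio with a 95% interval that excluded 1, and 6 did so with the interval widened to allow for 28 pairs. Each of the 9 pairs included EFNB2 or EPHB3, the 2 members already called one by one, so the pairs add no further member. Over all genes, 15.4% were called higher and 14.7% lower one by one. No share over pairs of other genes was computed, so these numbers of pairs have no background to be read against. The 6 pairs were EPHB3 against each of EFNB1, EFNB2, EFNB3, EPHB2 and EPHB4, and EFNB2 against EPHB4. EFNB2 over EPHB3 showed the largest change, 2.44-fold (1.89 to 3.16, or 1.64 to 3.67 when widened). EPHB3 against EPHB1 and EPHB6, its less abundant relatives, gave changes of 0.675 (0.416 to 1.10) and 0.653 (0.419 to 1.02), which included no difference.

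The class A relatives differ from class B in that their ephrins are held to the membrane by a lipid anchor. Class B made up 74.3% of all ephrin FPKM of wild type and 79.1% of that in the library labelled MEIS1-/-, and 38.7% and 38.8% of all EPH receptor FPKM. Of the 6 measured EPHA receptors, 1 was higher and 2 were lower, and the 4 measured class A ephrins all had intervals that included 1. Over all genes compared, 15.4% were called higher and 14.7% lower. EPHA2, an epithelial and stem cell receptor, was the most abundant EPH receptor in wild type at 63.8 FPKM and stood at 46.7 FPKM in the other library, 1.36-fold lower (1.25 to 1.48). EPHA1 was 1.76-fold lower (1.36 to 2.31), with 161 and 92 counts, close in count and size to EPHB3. EPHA7, with 195 and 492 counts, was 2.49-fold higher (2.11 to 2.96). The median log2 ratio was -0.23 for the EPHA and -0.31 for the EPHB receptors.

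The pathway around the members was read from 3 lists. For these and every marker list below, the shares over all genes compared were 15.4% called higher and 14.7% lower. Of 16 effectors of forward signalling, 3 were higher, 3 lower and 10 had intervals that included 1 (median log2 ratio 0.0055), which is near those shares. SDC2, the heparan sulfate proteoglycan syndecan-2 that EPHB2 phosphorylates, was 1.39-fold lower (1.26 to 1.55). The tyrosine kinase gene ABL1 was 1.23-fold lower (1.12 to 1.36), and VAV3, a guanine nucleotide exchange factor, was 1.52-fold higher (1.12 to 2.09) on 70 and 108 counts. GRB7, an adaptor gene, had a ratio of 0.756 (0.540 to 1.05). ARHGEF15, an exchange factor of vascular cells chosen after its values were seen, was the 1 effector at 2-fold or more, on 6 and 18 counts. The remaining calls, also outside the naming rule, were ABL2 at 1.19-fold higher (1.05 to 1.36) and GRB10 with a ratio of 0.869 (0.770 to 0.980).

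Of 15 measured partners of ephrin-B reverse signalling, 3 were higher, 2 lower and 10 included 1 (median -0.05), also near the shares over all genes. GRIP1, a PDZ scaffold that binds the ephrin-B tail, was 1.72-fold higher (1.32 to 2.28) on 86 and 150 counts. The related scaffold genes GRIP2 and PICK1 had ratios of 0.698 (0.456 to 1.05) and 0.676 (0.438 to 1.02), and the scaffold gene CNKSR1 0.707 (0.487 to 1.01). The members of the list closest to EFNB2 in size and direction were FYN, a SRC family kinase that phosphorylates the ephrin-B tail, at 1.33-fold higher (1.17 to 1.53), and RGS3, a regulator of G proteins that binds it, at 1.30-fold higher (1.07 to 1.58). The 2 lower members were the phosphatase gene PTPN13, whose product acts on ephrin-B, with a ratio of 0.869 (0.803 to 0.940), and the kinase gene YES1 with 0.911 (0.846 to 0.980). FYN, RGS3, PTPN13 and YES1 were chosen after their values were seen.

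Of 12 measured proteases that cleave ephrins or EPH receptors, 4 were higher, 3 lower and 5 included 1 (median 0.01), against 15.4% higher and 14.7% lower over all genes. ADAM9 was 1.69-fold higher (1.52 to 1.88), with 543 and 925 counts. Among subunits of gamma-secretase, which cuts the ephrin-B stub inside the membrane, PSEN2 was 1.52-fold lower (1.10 to 2.12) and NCSTN 1.12-fold lower (1.01 to 1.24). ADAM10, a main sheddase of ephrins, had 1330 and 1470 counts and a ratio of 1.09 (1.02 to 1.18), and MMP2 had a ratio of 1.08 (1.03 to 1.14). ADAM12 and MMP9 were the 2 members past 2-fold, ADAM12 with 13 and 40 counts and MMP9 with 37 and 8. ADAM10, MMP2, ADAM12 and MMP9 were chosen after their values were seen.

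Most endothelial markers were higher, as EFNB2 was, while arterial and venous markers were mixed. Of 15 measured endothelial markers, 12 were higher, 1 (VWF, ratio 0.605) lower and 2 included 1, with a median log2 ratio of 1.05, and their summed FPKM was 393 in wild type against 648 in the library labelled MEIS1-/-. CLDN5 was in neither table and ROBO4 had 0 counts in wild type. The junction gene CDH5 (VE-cadherin) was read at 4.81 and 18.6 FPKM and PECAM1 (CD31) at 1.13 and 6.20 FPKM. EFNB2 was thus more abundant than CDH5 and PECAM1 in both libraries. FLT1 (166 and 291 FPKM) and KDR (141 and 160 FPKM) were more abundant than EFNB2 in both, and the other measured markers less. The EFNB2 ratio of 1.28 lay low in the range of the list, which ran from 0.605 for VWF to 6.99 for PLVAP. Its log2 ratio of 0.36 was below the list median of 1.05. Of the measured markers, only VWF, KDR (1.14) and SOX18 (1.05) had ratios below that of EFNB2. All the others lay above it, with ESAM (1.39) the nearest, CDH5 at 3.87 and PECAM1 at 5.35. The part of endothelial cells in the EFNB2 difference was not tested.

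Of 13 measured arterial markers, 8 were higher, 4 lower and 1 included 1 (median 0.32), with summed FPKM of 217 and 208. JAG2, a Notch ligand, was 2.78-fold higher (1.79 to 4.69), the gap junction gene GJA5 1.502-fold (1.24 to 1.84) and the Notch target HEY1 1.45-fold (1.09 to 1.93), while SOX17, also an endoderm gene, was 1.63-fold lower (1.41 to 1.90). DLL4, the arterial Notch ligand, had 2 and 7 counts and was below the minimum. Of 5 measured venous and lymphatic markers, 2 were higher, 1 lower and 2 included 1 (median 0.35), with summed FPKM of 343 and 260. NRP2 had a ratio of 0.983 (0.925 to 1.05), like EPHB4 close to 1, FLT4 was 1.83-fold higher (1.19 to 2.95), PROX1 had a ratio of 1.28 (0.850 to 1.95), and APLNR, an apelin receptor that early mesoderm also expresses, was 1.43-fold lower (1.37 to 1.49). NR2F2, the 1 member of this list at 2-fold or more, was 2.31-fold higher (1.26 to 4.85) on 14 and 34 counts. LYVE1 was in neither table. Of 5 measured blood cell markers, 3 were higher and 2 included 1, with summed FPKM of 7.66 and 15.5. MYB was 1.86-fold higher (1.32 to 2.71), SPN had a ratio of 1.13 (0.863 to 1.49), and HBZ and HBG1 were in neither table.

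Most measured markers of the primitive streak and of pluripotent cells were lower, as EPHB3 was. Of 9 measured streak markers, 8 were lower and 1 included 1 (median -1.70), with summed FPKM of 192 and 55.9. EOMES had 867 and 211 counts and CER1 136 and 31, 4.14-fold and 4.33-fold lower, while LHX1 and FGF17 were 3.77-fold and 3.84-fold lower. MSGN1 was in neither table. Of 10 measured pluripotency markers, 7 were lower and 3 included 1 (median -0.60), with summed FPKM of 901 and 673. VRTN was 2.58-fold lower, NANOG 1.92-fold (1.65 to 2.24), CRIPTO 1.84-fold (1.68 to 2.01) and POU5F1 1.76-fold (1.59 to 1.95), which are the largest ratios of this list by the naming rule. Other abundant members lay nearer to 1, with DNMT3B 1.40-fold and LIN28A 1.08-fold lower and ZFP42 at a ratio of 1.05. SOX2 had 4 and 9 counts and was below the minimum. The part of streak or pluripotent cells in the EPHB3 difference was not tested.

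Of 6 measured neural and surface ectoderm markers, 2 were lower and 4 included 1 (median -0.29), with summed FPKM of 166 and 145. OTX2 was 2.33-fold lower, TFAP2A 1.44-fold lower, and NES had a ratio of 0.966 (0.921 to 1.01). SOX1, NEUROG2 and KRT5 were in neither table. Of 8 measured definitive endoderm markers, 1 was higher, 2 lower and 5 included 1 (median 0.06), with summed FPKM of 133 and 138. APOA1, of an apolipoprotein, was 2.87-fold higher, FOXA2 had a ratio of 0.719 (0.491 to 1.04), and the 2 lower genes, SOX17 and CXCR4, are also in the arterial list.

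**Figure D4:**
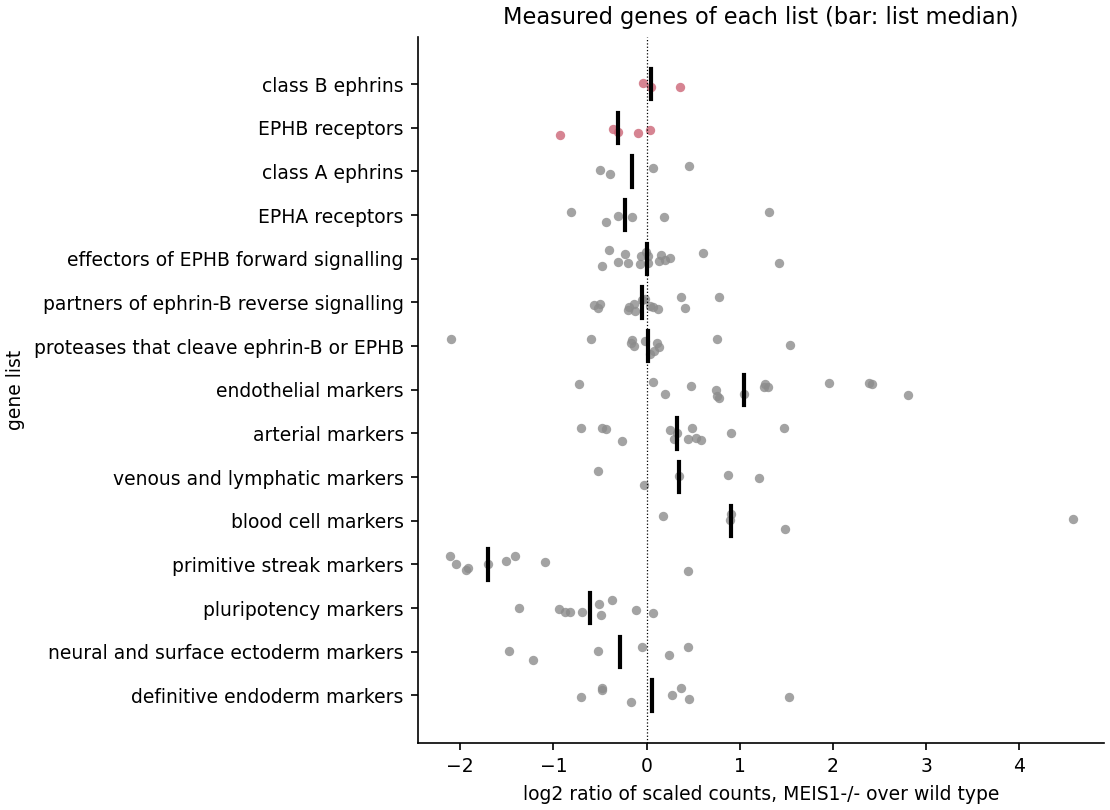
Log2 ratio of scaled counts, library labelled MEIS1-/- over wild type, for every measured gene of each list (points) with the list median (bar); class B ephrins and EPHB receptors are in red. The members lie between -0.92 and 0.36, while medians reach 1.05 for endothelial markers and -1.70 for primitive streak markers.

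Genes with the nearest pattern to the 2 members with the largest ratios were found by distance in log2 ratio and log2 mean count among 10864 genes. With 2 libraries such a pattern holds only a level and a ratio. Nearest to EPHB3 were LDOC1 (198 and 102 counts, distance 0.0438), the noncoding RNA gene MIAT (193 and 101, 0.0471) and TRDN (190 and 100, 0.0637). Nearest to EFNB2 were ECE1 (1251 and 1632 counts, distance 0.0320), which encodes an enzyme that activates endothelin, NOLC1 (1263 and 1611, 0.0399) and EIF4A2 (1316 and 1652, 0.0453).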

How the data were processed

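Each library was built from total RNA (2 µg) using Illumina's TruSeq chemistry, per the labels' protocols, and strand and replicate cultures were not stated. The authors deposited, for each library, expected counts (estimated counts from RSEM that need not be whole, not scaled) and FPKM values scaled for length and depth, per the file headers. BWA, Bowtie, RSEM and hg19 are named without versions in the submitters' processing notes, and the series text also named TopHat with Cufflinks. Lengths in the deposited files were transcript lengths. Genes absent from 1 table were taken as 0.

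Expected counts were rounded and scaled by TMM effective library sizes (edgeR 4.0.16, R 4.3.3). For 7 of the 8 members they were whole within 0.005 (EPHB2: 172.38 and 178.38). Log2 ratios used a pseudocount of 1, and folds are those ratios as linear values. Intervals are exact Clopper-Pearson 95% intervals conditional on the summed count (Poisson for a single level, exact conditional odds ratio for pairs, 99.82% where widened over 28 pairs). Totals of 5202847 and 5296397 counts set their width. Without molecular identifiers several reads can be copies of 1 molecule, so intervals cover counting error only. Genes with at least 10 counts in 1 library were compared. No model was fitted and no p-value computed, since each genotype had 1 library. Intervals were tested on simulated counts for this comparison, where they covered the true ratio of 1 for 95.8% of 14067 unchanged genes. Those counts had Poisson error only and a known scaling, which is what the intervals assume. This result therefore checks the calculation and cannot show how well the intervals cover error in these libraries.

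Gene numbers were matched to RefSeq symbols (GRCh38.p14), 18413 of 18518, and promoter windows to 7 of 8 members. Protein sequences were not used here. Members and lists were chosen with earlier results of these data known. Named genes are the 8 members, MEIS1, up to 4 genes per list with the largest absolute log2 ratio among those with at least 50 counts, and the 3 genes nearest to each of 2 members; 1 of these genes is not reported here. Others are marked, except KDR, FLT1, VWF, ESAM, SOX18, NR2F2, SOX2, DNMT3B, LIN28A, ZFP42, CLDN5, ROBO4, DLL4 and markers listed in neither table, which describe the marker lists. Alternatives were other scalings (DESeq2 1.42.0 size factors, library totals, upper quartile), FPKM, pseudocounts, rounding, count minimums and size thresholds.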

Additional observations from a re-analysis of the deposited data

How the results depend on the processing

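The 8 members kept their sign and stayed inside their counting interval in 56 of 56 values over 7 alternatives, and 1 member was called higher and 1 lower in 8 of 8 alternatives each. No interval was computed for a ratio of FPKM values, so these 2 counts had no value from FPKM. The other pseudocounts and count minimums could not change these 2 counts. The intervals use no pseudocount, and all 8 members reached even the minimum of 50 counts. The scalings differed little, with factors of 1 to 1.018 between the libraries, so under them the member values had little room to move. Of 441 values for 63 named genes, 439 stayed inside the interval and 2 lay outside it with the same sign, PECAM1 (log2 ratio 1.76) and TIE1 (1.68) from FPKM with a pseudocount of 1, which weighs more on low FPKM values. The count of members at least 2-fold different was 0 in 10 of 11 alternatives and 1, EPHB3, at 1.5-fold. The 4-fold threshold and the other count minimums could only give 0 here, since none of them can add a member. The EFNB2 to EPHB4 change was 1.36 from FPKM and from counts not rounded. Neither alternative could move it much, because the expected counts of both genes were whole and length and depth cancel in this change. The ephrin to receptor change lay between 1.32 and 1.41 in its 3 alternatives, all of which kept EPHB3. Over all genes, 417 were at least 2-fold higher and 424 lower with an interval that excluded 1. These were 182 and 183 from FPKM with a pseudocount of 1, where unit and pseudocount scale changed together. The FPKM counts, of members and of all genes, used the fold alone, without an interval. With a minimum of 50 counts, which admits fewer genes, they were 161 and 171. A threshold of 1.5-fold gave 827 and 893, and one of 4-fold gave 111 and 81. The cause of the lower counts from FPKM was not tested. No paired analysis was possible because each genotype had 1 library. Depth limits EPHB1 and EPHB6 most, with 44 to 69 counts a library.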
